A study of Mus musculus with 3 samples.

Results

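The calbindin and calcium handling genes described here are 9 named mouse genes: the EF-hand calcium buffers Calb1, Calb2, Pvalb and S100g, the calcium channels Trpv5 and Trpv6, the sodium/calcium exchanger Slc8a1 and the plasma membrane calcium pumps Atp2b1 and Atp2b4. Members were taken by symbol, from probe sets that the platform annotation assigns to 1 gene, and probe sets of 1 gene were averaged. This gave values for 8 of the 9 genes from 9 probe sets, out of 19938 genes measured in this way; Atp2b4 is not analysed here. Slc8a1 had 2 probe sets and each of the other measured genes had 1.

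The samples were 3 arrays of a single group, ureteric tip cells of the developing kidney from CD-1 mouse embryos at 10.5 days post coitum (Theiler stage 18, sex given as unknown). All embryos carried the Hoxb7-EGFP transgene, which uses control sequence of Hoxb7 to make the nephric duct and its bud fluoresce green, and cells were sorted on that fluorescence after trypsin digestion. Each array held 1 bud, not a pool, with RNA amplified in 1 round. There was no treated, mutant or other control group, so the data answer which of these genes gave signal above background in the early bud and how far the 3 buds differed. The labels do not say whether the buds came from different embryos or litters, so every SD here measures the spread between these 3 samples only. Each p-value rests on the same 3 samples, on the background level of each array and on a variance prior taken from all genes. For a gene with 1 identical value on all arrays, the spread in its test comes only from the background levels and that prior.

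Calcium is reabsorbed in the mature distal nephron by a relay. It enters tubule cells through the apical channels TRPV5 and TRPV6, is carried across the cell bound to calbindins, and leaves through the exchanger NCX1 (the product of Slc8a1) and the plasma membrane calcium pumps. The large calbindin, encoded by Calb1, is also made by the nephric duct and ureteric bud of the embryo, where it is widely used to stain the branching epithelium. Calb2 encodes calretinin, its close relative known mainly from neurons and mesothelium. Pvalb encodes parvalbumin, a buffer of fast muscle, interneurons and the early distal convoluted tubule. S100g encodes the small calbindin of intestine, uterus and kidney.

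Signal is given in log2 units as deposited. Olfactory receptor genes, assumed to be silent in kidney, set the background: the 95th percentile of their 1035 probe sets was computed on each array and lay at 5.40, 5.45 and 5.41 log2 on arrays 1, 2 and 3. A gene was called above background where limma's one-sided moderated test of the mean difference from that level had an adjusted p under 0.05 over all genes. Column medians were 5.47, 5.50 and 5.48 log2. The ureteric bud markers, among them Ret, Gata3, Pax2 and Cdh1, were called in 16 of 16 genes, and those of metanephric mesenchyme, the tissue around the bud, in 3 of 10, namely Cited1 at 7.02 ± 0.14 log2 (SD, n = 3) and Sall1 and Wt1 at 6.09 and 5.60, each holding a single value, but not Six2, Gdnf, Eya1 or Osr1. Endothelial markers were called in 9 of 12 genes, erythroid in 4 of 8, muscle and heart in 5 of 10, neuron and neural crest in 3 of 8, and leukocyte in 3 of 8. Among all genes 53% were called. The metanephric mesenchyme, erythroid, muscle and heart, neuron and neural crest, and leukocyte lists did not reach that share. The ureteric bud list and the endothelial list, at 75%, passed it. Since the cells were measured in bulk, a smaller share of expressing cells and less RNA in each cell cannot be told apart.

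Of the 8 measured calcium genes, 4 were called above background, namely Calb1, Atp2b1, Trpv6 and Slc8a1, and 4 were not, namely Calb2, Pvalb, S100g and Trpv5. Over all genes the share called was 53%, so a count of 4 of 8 was close to the share over all genes. Without Calb1, which was chosen for its high signal, the count was 3 of 7. The called genes were above their array's level on all 3 arrays, and the genes not called were below it on all 3, so no gene straddled the level.

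**Figure D1:**
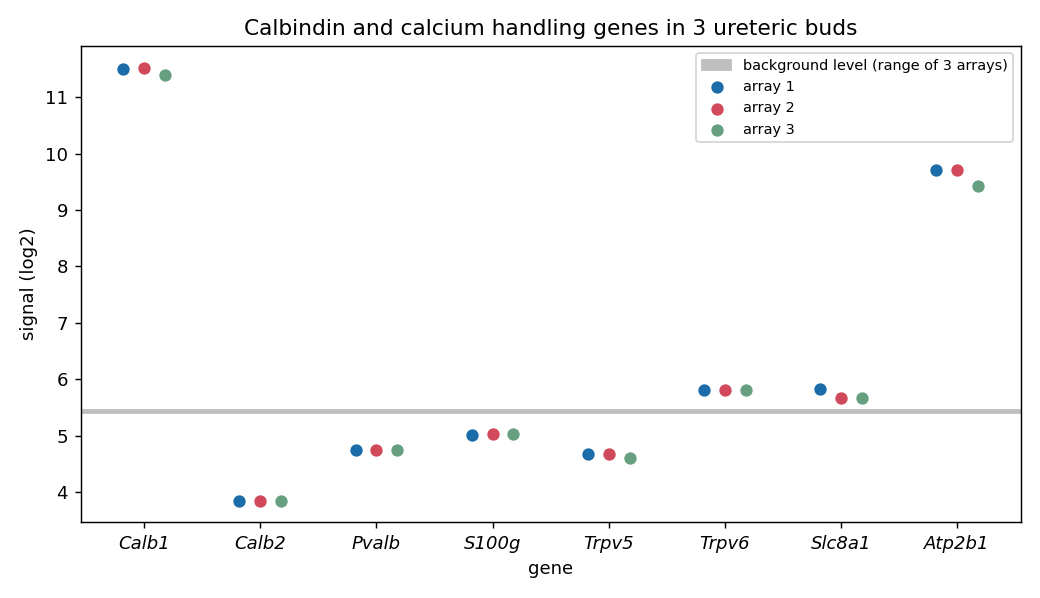
Signal in log2 units (vertical axis) of the 8 measured genes (horizontal axis) on each of the 3 arrays, 1 point per array, with the grey band spanning the background levels of 5.40 to 5.45 log2. Calb1 and Atp2b1 lie far above the band, Trpv6 and Slc8a1 just above it, and Calb2, Pvalb, S100g and Trpv5 below it on all 3 arrays.

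Among the buffers, Calb1 had signals of 11.49, 11.52 and 11.38 log2 on arrays 1, 2 and 3, with a mean of 11.47 ± 0.07 (SD, n = 3). This was 6.09, 6.07 and 5.98 log2 above the level of the same array. The 3 buds lay close together, with a difference of 0.14 log2 between the highest and the lowest. Calb1 was included because it was known as a high-signal marker of the bud, so its level and its place among the called genes are a description and support nothing. Its probe set was the only one of the 9 whose value differed on all 3 arrays.

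The other EF-hand buffers of the set gave no signal above background. Calb2 was at 3.85 log2 on all 3 arrays, or -1.54, -1.60 and -1.55 log2 relative to the level of arrays 1, 2 and 3. Pvalb was at 4.75 log2 on all 3 arrays, with a mean of -0.67 log2 relative to the level. S100g, the small calbindin, had signals of 5.02, 5.04 and 5.04 log2 and lay nearest to the level among the genes not called, at -0.38, -0.42 and -0.37 log2. None of the 3 passed the test (limma, adjusted p of 1 for each). A probe set below the background level does not show that a transcript is absent. S100g stood at -0.006 log2 relative to the 90th percentile of olfactory receptors and at 0.17 with vomeronasal receptors as background, without a call.

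The channel genes Trpv5 and Trpv6 are neighbours in the RefSeq gene table, with 0 protein-coding genes between them, and they fell on different sides of the level. Trpv6 was at 5.81 log2 on all 3 arrays, 0.41, 0.36 and 0.40 log2 above background (limma, adjusted p = 0.000167). Trpv5, the channel most closely tied to distal tubule calcium uptake, was at 4.68, 4.68 and 4.61 log2, or -0.72, -0.77 and -0.80 log2 relative to background, and was not called (limma, adjusted p = 1). Because Trpv6 held a single value on all arrays, the spread in its test comes from the 3 background levels and from limma's prior, not from the buds. Its call held in 9 of 11 alternative settings (limma, adjusted p from 8.16e-16 to 1). The lowest of these came with vomeronasal receptors as background, where limma used 1 SD pooled over all genes. With the 99th percentile of olfactory receptors as background Trpv6 lay under the level, at -0.25 log2, and with genes of keratin-associated proteins and beta-defensins in that role at -1.06 log2. The 2 channels were not tested against each other, since different probes do not measure level on a shared scale.

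Of the extrusion genes, Atp2b1, which encodes the widely used pump PMCA1, had signals of 9.70, 9.70 and 9.42 log2, with a mean of 9.61 ± 0.16 (SD, n = 3). It was 4.31, 4.25 and 4.01 log2 above background on arrays 1, 2 and 3 (limma, mean 4.19, SE 0.07, adjusted p = 4.02e-06). Array 3 was the low one, and arrays 1 and 2 held the same value. The call of Atp2b1 held in 12 of 12 alternative settings, over which it stood between 2.74 and 4.74 log2 above the level.

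Slc8a1 averaged 5.84, 5.68 and 5.67 log2 over its probe sets, 0.44, 0.23 and 0.26 log2 above background (limma, mean 0.31, SE 0.05, adjusted p = 0.00543). One probe set, 10453233, was at 6.07, 5.75 and 5.75 log2, so that array 1 was the high one. The other, 10453231, was at 5.61, 5.61 and 5.58 log2, nearly level over the arrays. Both lay above background on all 3 arrays, the second by 0.21, 0.16 and 0.18 log2. The call of Slc8a1 was lost without array 1 (limma, 0.24 log2 above background, adjusted p = 0.0615). That fit used 1 SD pooled over all genes, so its call is not like for like with the main one. Relative to the same stricter backgrounds Slc8a1 lay at -0.34 and -1.14 log2. In the other 9 of 12 alternatives the call of Slc8a1 held, and its adjusted p (limma) ran from 1.8e-13 to 1 over all 12. The lowest again came from the pooled SD of the fit with vomeronasal receptors.

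**Figure D2:**
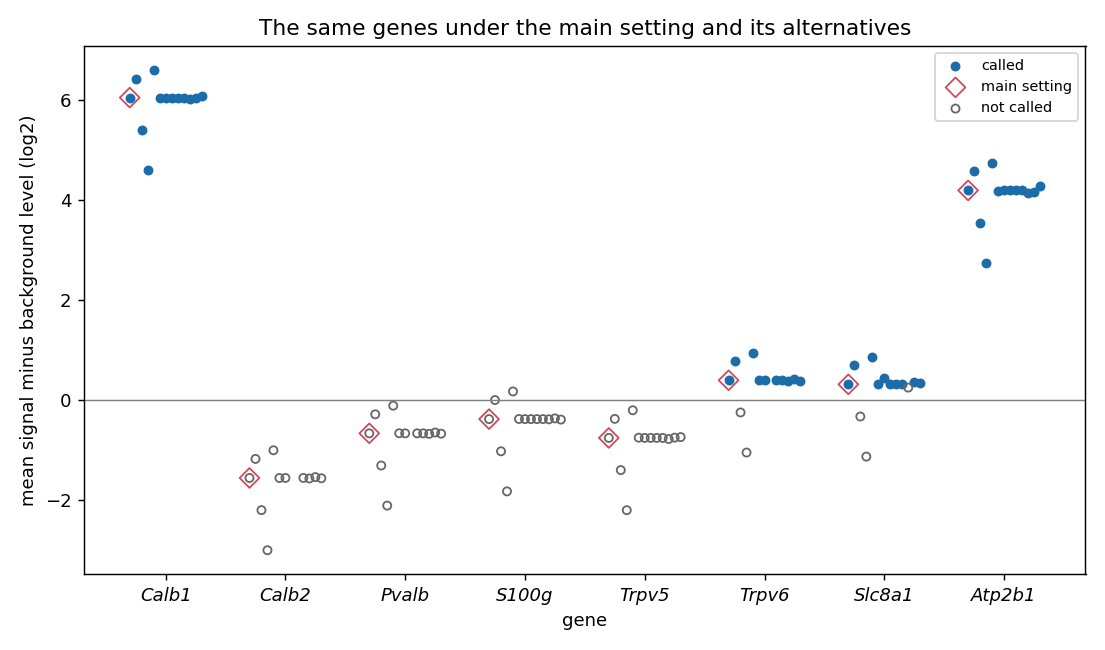
Mean signal minus the background level in log2 units (vertical axis) for each gene (horizontal axis) under the main setting (diamond) and its alternatives; filled points were called above background and open points were not. Calb1 and Atp2b1 are called throughout, Trpv6 and Slc8a1 lie near 0 and change sides, and Calb2, Pvalb, S100g and Trpv5 are never called.

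The spread of these genes between the buds was like that of other genes, with a median range of 0.04 log2 against 0 over all genes and 0.05 over genes above background. None of the 8 genes differed by over 1 log2 between its highest and lowest array, against 2.37% of all genes and 2.75% of genes above background. Of so few genes, a count of 0 is near that share. Atp2b1 had the widest range, 0.29 log2, above the upper quartile of genes above background (0.26), followed by Slc8a1 with 0.17, Calb1 with 0.14, Trpv5 with 0.07 and S100g with 0.02. The other 3, Calb2, Pvalb and Trpv6, held 1 identical value on all arrays, as did 51.7% of all genes and 42.1% of those above background. Among the 9 probe sets, 5 more held the same value on exactly 2 arrays. Without array 3 the range was 0 log2 in Atp2b1 and Trpv5 and 0.03 in Calb1, and without array 1 it was 0.01 in Slc8a1 and 0 in S100g. An SD of 0 is a property of the deposited table, not a measured agreement of the buds, and the small ranges above are limited in the same way.

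In 4 of the 5 genes whose arrays differed, array 3 had the lowest signal, namely Calb1, Trpv5, Slc8a1 and Atp2b1. Relative to each array's background level this held for 3 of the 5, since Slc8a1 was then lowest on array 2, and its signals on arrays 2 and 3 differed by 0.01 log2. Of the calcium genes 1 was highest on array 1 and 1 on array 2. The ureteric bud markers were lowest on array 3 in 8 of 16 genes and highest on array 1 in 12. Their medians were 8.10, 7.82 and 7.68 log2 on arrays 1, 2 and 3. The share of all genes lowest on array 3 is not given here, so these counts cannot be set against it. Ret, the GDNF receptor of the bud tip, was at 8.69, 8.35 and 8.18 log2, and its co-receptor Gfra1 at 8.58, 8.22 and 7.85. Endothelial markers were highest on array 3 in 8 of 12 genes and lowest on array 2 in 11. Their median was 6.21, 5.70 and 6.52 log2 and their lowest and highest genes lay at 5.49 and 8.37, 5.36 and 6.73, and 5.49 and 9.55 log2. Among them Cdh5, a vascular cadherin, was at 8.22, 5.89 and 8.07 log2, and Tek, the angiopoietin receptor, at 6.69, 5.67 and 7.34. The part of other cells in the calcium gene values was not tested. Each difference rests on 1 array and has no test.

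**Figure D3:**
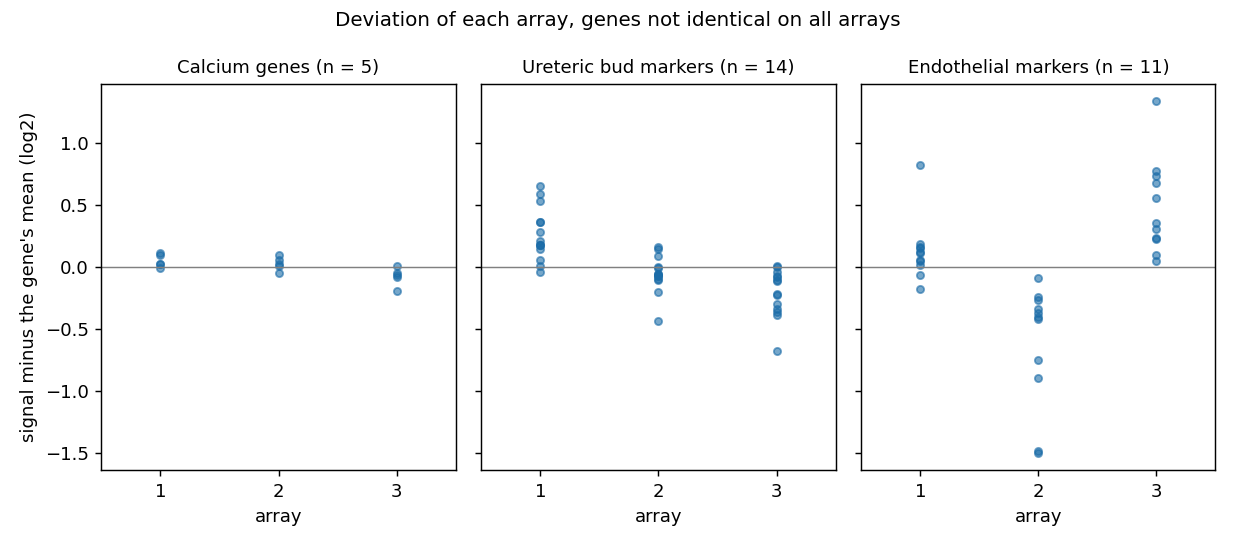
Each gene's signal on an array minus its mean over the 3 arrays, in log2 units (vertical axis), by array (horizontal axis), for the calcium genes, the ureteric bud markers and the endothelial markers that were not identical on all arrays; each point is 1 gene. The 5 calcium genes stay near 0 with array 3 lowest in 4, while bud markers are mostly highest on array 1 and endothelial markers mostly lowest on array 2.

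By the distance between profiles centred on their own means, over 3 arrays and 6117 candidate genes, the genes closest to Calb1 were Zc3h12c (distance 0.0042 log2), Ska2 (0.0057) and Ivns1abp (0.0074). Those closest to Atp2b1, the called gene with the widest range, were Ubxn6 (0.0002), Fyttd1 (0.0027) and Atg14 (0.0040). With 3 arrays and many tied values, close profiles are a description only.

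The wider calcium machinery was described with 9 lists of other genes, of which 170 of 183 genes had a value; S100a10 and Trpm6 each stood in a pair of lists. Together 69 were called above background, or 40.6%, against 53% of all genes. The lists differed in their counts, from 2 of 17 to 12 of 18, and none was tested as a set.

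Genes of the endoplasmic reticulum store and of store-operated entry were called in 12 of 18. The chaperones Hsp90b1, at 12.54 ± 0.15 log2 (SD, n = 3), Hspa5, at 10.88 ± 0.28, Canx, at 11.60 ± 0.04, and the lumenal calcium buffer Calr, at 9.41 ± 0.27, were among them. The 3 ryanodine receptor genes, which encode the release channels of muscle and neurons, were not called, with Ryr1 at 5.13, Ryr2 at 5.08 and Ryr3 at 4.26 log2, each identical on all arrays. Calmodulin and other EF-hand proteins were called in 17 of 32, with a median of 0.98 log2 over background. Calm2, a calmodulin gene, was at 12.44, 12.49 and 12.46 log2, and the secretory pathway proteins Calu and Rcn1 were at 10.13 ± 0.15 and 9.95 ± 0.15. The penta-EF-hand gene Pdcd6 was at 9.45 ± 0.08 log2, while Calm4 (5.19), Calml3 (5.18) and Calml4 (4.82) were not called. S100 proteins, the family of S100g, were called in 7 of 15. S100a11 was at 10.18 ± 0.11 log2, S100a16 at 8.01 ± 0.65, S100a6 at 7.97 ± 0.02 and S100a10 at 6.95 ± 0.18, and S100a3 (4.61), S100a4 (5.03) and S100a5 (4.55) were not called.

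Other pumps and exchangers were called in 4 of 15. They were Atp2a2, the housekeeping pump of the endoplasmic reticulum, at 9.71 ± 0.10 log2 (SD, n = 3), Atp2c1, the pump of the Golgi, at 8.98 ± 0.02, the pigment cell exchanger gene Slc24a5 at 5.60 ± 0.14 and the mitochondrial exchanger gene Slc8b1 at 5.56, identical on all arrays. The relatives of the 2 extrusion routes, Atp2b2 (5.38 log2), Atp2b3 (5.03) and Slc8a2 (4.91), were not called. Without array 1 or without array 3 the count was 2, in fits that used 1 SD pooled over all genes. TRP channel genes were called in 3 of 23, with Trpm7, a channel fused to a kinase, at 7.46 ± 0.11 log2, the lysosomal channel gene Mcoln1 at 6.93, identical on all arrays, and Trpv4 at 5.98 ± 0.33. Trpv1, Trpv2 and Trpv3 were not called, at 4.64, 4.98 and 4.58 log2. Voltage-gated calcium channel genes were called in 2 of 17, Cacna1d at 5.66 and Cacna2d4 at 5.81 log2, each with a single value on all arrays. With the 99th percentile as background 0 were called, against 35.3% of all genes. Without array 1 or without array 3 the count was 1, again in fits with the pooled SD. Cacna1a (4.78), Cacna1b (5.42) and Cacna1c (4.61) were not called. Mitochondrial calcium genes were called in 6 of 9, with the outer membrane channels Vdac3 at 10.22 ± 0.07, Vdac2 at 9.91 ± 0.03 and Vdac1 at 8.90 ± 0.07 log2 and the uniporter subunit Smdt1 at 9.32 ± 0.36. Mcu, the pore subunit, held 5.03 log2 on each array, with Micu3 and Mcur1 at 5.48 ± 0.21 and 5.45 ± 0.84, none of them called.

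Genes that control distal calcium transport were called in 11 of 22. Rab11a, a recycling endosome gene, was at 9.55 ± 0.11 log2 (SD, n = 3), the kinase genes Stk39 and Wnk1 at 8.58, identical on all arrays, and 7.83 ± 0.17, and S100a10, whose product binds TRPV5 and TRPV6, at 6.95 ± 0.18. The vitamin D receptor gene Vdr was at 4.65 log2 and the retinoid X receptor gene Rxrg at 4.84, neither varying over the arrays. Neither was called, nor was Cyp27b1, the enzyme that activates vitamin D, at 4.47 ± 0.09. The other retinoid X receptor genes, Rxra (5.99 log2) and Rxrb (5.69), were called (limma, adjusted p of 4.94e-05 and 0.000545). Rxra and Rxrb also did not vary between arrays and were named with their values in view. The calcium hormone receptor genes Pth1r, at 6.78, 6.69 and 6.73 log2, and Calcr, at 6.37 log2 and identical on all arrays, were called (limma, adjusted p of 1.6e-05 and 1.14e-05); both were picked out with their values in view. Markers of the mature distal and connecting tubule were called in 8 of 21. Hsd11b2, which inactivates glucocorticoids, was at 6.43 log2, the water channel gene Aqp2 at 6.26, the transcription factor gene Pou3f3 at 5.93 and the claudin gene Cldn19 at 5.78, each identical on all arrays. The salt transporter genes Slc12a3 (5.44 log2) and Slc12a1 (3.69), neither varying over the arrays, and Umod (4.72 ± 0.16) were not called. With the 99th percentile as background 2 of these tubule markers were called, against 35.3% of all genes.

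**Figure D4:**
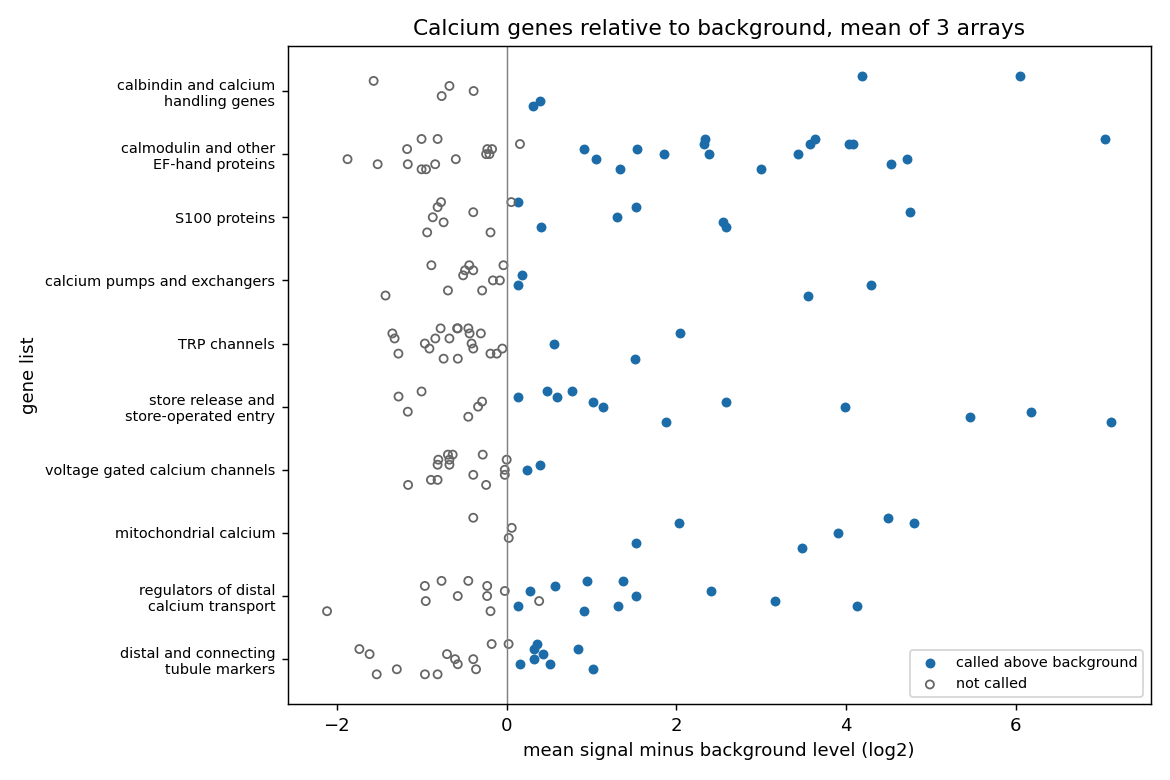
Mean signal over 3 arrays minus the background level in log2 units (horizontal axis) for each gene of the calbindin and calcium handling set and of the 9 other calcium lists (vertical axis); each point is 1 gene, filled where called above background. The highest points reach 7.12 in the store list, 7.05 in the EF-hand list and 6.05 in the calbindin and calcium handling set, against 2.04 among the TRP channels, 1.02 among the tubule markers and 0.39 among the voltage-gated channels; the other lists reach 4.13 to 4.80.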

How the data were processed

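RNA of 3 sorted ureteric buds was hybridized to Affymetrix arrays. The values deposited by the authors are 1 log2 signal per probe set and array. Per the submitters' processing notes, the software was Affymetrix Expression Console. The log base was inferred from the value range. Its background correction, normalization, probe summary and genome build were not given in the sources used here, and no coordinates are printed. Values were used as deposited.

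Of 35557 probe sets, 21789 carried 1 symbol in the platform annotation, 1621 carried several, and for 12147 none was listed. The RefSeq gene table (GRCm38.p6) held the gene ID of 21698 of the first, with 0 differing symbols. Probe sets of 1 gene were averaged, which concerned 999 of 19938 genes. Values counted as identical within 1e-06 log2. With limma 3.58.1 in R 4.3.3, each gene's value minus its array's background level was fitted with an intercept, tested one-sided and adjusted by Benjamini-Hochberg over all 19938 genes. Identical values took part in estimating limma's prior (1.71 degrees of freedom, SD 0.05 log2). The fit was tested on simulated data, and the outcome is not reported here. The number of arrays limits the precision.

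The members and lists were chosen with earlier results of these data known. Within each calcium list, all called genes were named where 5 or fewer were called, otherwise the 4 with the highest mean minus SD, and up to 3 genes not called in list order. The 3 nearest profiles were named for Calb1 and for the called member of widest range. The 12 alternatives were other percentiles (90th, 99th), other background genes, quantile normalization, the probe set with the highest mean, identical genes left out, the lowest 25% of probe sets left out, a rule without a model, and each array left out.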

Additional observations from a re-analysis of the deposited data

How the results depend on the processing

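Under the 12 alternatives 269 values were recomputed. In 228 a gene kept its direction and call, a range moved by less than the SD between arrays, or a count stayed within 1.5 times its main value. The count of calcium genes above background was 2 of 8 with the 99th percentile, instead of 4. It was again 2 when genes of keratin-associated proteins and beta-defensins (84 probe sets) set the background. Over all genes the share called fell from 53% to 35.3% with the 99th percentile and to 21.1% with the keratin and defensin background. With the latter, Trpv6 stood at -1.06 and Slc8a1 at -1.14 log2 relative to the level; with the 99th percentile they stood at -0.25 and -0.34. S100g turned to 0.17 log2 above the level with vomeronasal receptors as background, without a call (limma, adjusted p = 0.117, and up to 1 in its other alternatives). Without replicate 1, 2 or 3 the count of the 8 genes called was 3 to 4.

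The other calcium genes gave 32 called with that keratin and defensin background instead of 69, and between 46 and 100 in the other alternatives. The share called over all genes moved as well, between 65.0% with vomeronasal receptors and 21.1% with the keratin and defensin background. It was 63.7% at the 90th percentile, 35.3% at the 99th and 63.1% with identical genes left out. Without array 1, 2 or 3 it was 48.5%, 52.8% and 48.8%. By list the keratin and defensin background gave 3 of the S100 proteins, 2 pumps and exchangers, 1 TRP channel and 6 store genes. It gave 0 voltage-gated channels, 3 regulators and 0 tubule markers. At the 90th percentile 8 pumps and exchangers, 6 TRP channels and 7 voltage-gated channels were called, and with vomeronasal receptors 8, 7 and 7. At the 99th percentile the counts were 2 pumps and exchangers, 0 voltage-gated channels and 2 tubule markers. With identical genes left out they were 0 voltage-gated channels, 6 regulators and 1 tubule marker, since those genes could not be called. With an array left out, pumps and exchangers ranged from 2 to 3 and voltage-gated channels from 1 to 2. The fits without array 1, without array 3 and with vomeronasal receptors used 1 SD pooled over all genes. Their p-values and calls are therefore not like for like with those of the main fit or the fit without array 2. Beyond what the settings themselves fix, the cause was not tested. Signal close to background limits Trpv6 and Slc8a1 most.

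No paired analysis was possible because the samples form 1 group.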

Other observations

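Among the other calcium genes, 5 differed by over 1 log2 between their highest and lowest array, which were named after their values were seen. Rcn3, an EF-hand protein of the secretory pathway, was at 8.70, 7.33 and 7.23 log2 on arrays 1, 2 and 3. S100a16 was at 8.01, 7.36 and 8.66 log2, and Anxa2, the annexin that binds S100a10, at 5.58, 5.33 and 6.50. S100a9, known from myeloid cells, was at 5.11, 5.11 and 6.21 log2, and Mcur1 at 4.84, 5.10 and 6.40. For S100a16 and Anxa2 array 2 was the lowest and array 3 the highest, the order of the endothelial marker medians of 6.21, 5.70 and 6.52 log2; the part of endothelial cells was not tested.

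Several low values in the table were shared exactly by many probe sets. The value of Calb2 was held by 186, 182 and 185 probe sets on arrays 1, 2 and 3, Calb2 included, that of Pvalb by 177, 184 and 194, and that of Trpv5 by 149 and 159 on arrays 1 and 2 and by 1 on array 3. One Slc8a1 probe set, 10453231, shared its value with 36, 31 and 1 probe sets in the same count. Calb1, Trpv6 and Atp2b1 held values found nowhere else on their array. Over the whole table, 18692, 18082 and 18678 of 35557 probe sets held a value that another probe set on the same array also held. Genes called above background could share a value too, as Hsd11b2 and Orai3 did at 6.43 log2 on all arrays.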
